A study of Mus musculus with 13 samples.

Results

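The comparison set 5 mice that combined fragmented sleep and a high-protein diet (SF_HPD) against 3 mice with undisturbed sleep on chow (SC_ConD), in inguinal fat, a white adipose depot under the skin of the groin. Sleep and diet differed together, so their separate parts cannot be told apart here. It took in every gene with an FPKM (fragments per kilobase of gene length, scaled to library size) of at least 1 in at least 3 of the 8 libraries of these groups. That rule kept 13197 of the 54532 genes in the table, and the 8 libraries were part of 13.

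Allocation of the mice was random and matched for weight, and each library came from 1 animal. Fat was taken after a 12 h fast, and total RNA was sequenced. In the diet of SF_HPD, protein made up 50% of the calories, carbohydrate 38% and fat 12%. SC_ConD received the matched chow, and 5 more mice with fragmented sleep on chow (SF_ConD) entered the estimate of the spread and is described beside single genes. The series title calls the sleep fragmentation chronic. The sources used here do not give strain, sex, age, the way sleep was disturbed or the length of treatment.

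White fat stores triglyceride when food is at hand and releases fatty acids and glycerol in fasting, and its adipocytes secrete hormones such as leptin and adiponectin. Sleep loss is known to act on the clock genes, on glucocorticoids and on inflammation. A diet rich in protein supplies amino acids that are broken down in mitochondria, whereas a lack of amino acids is sensed through the ATF4 pathway. The groin pad also holds a lymph node, vessels, mammary ducts in females and stroma, all of which add RNA to a bulk sample. In such a sample fewer cells of a type and less RNA per cell cannot be told apart.

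The library labelled SF_HPD 2 went against its tissue label. The lipid droplet gene Plin1 was at 1.47 FPKM there and at 61.4 to 424 FPKM in the other 12 libraries. The lipoprotein lipase gene Lpl was at 2.79 FPKM there and at no less than 95.0 FPKM elsewhere. Its mean log2(FPKM + 1) over 17 adipocyte markers was 3.84, against 7.58 to 8.80 in the other SF_HPD libraries and 7.59 to 8.52 in SC_ConD. Uroplakins, the plaque proteins of the lining of the urinary tract, were instead abundant in SF_HPD 2. Upk3a was at 6966 FPKM there against 51.0 FPKM or less in the other 12. Upk1a, another plaque gene, was at 3269 FPKM there and at most 2.76 FPKM elsewhere. The epithelial keratin gene Krt18 was at 5015 FPKM in SF_HPD 2 and at most 743 FPKM elsewhere. The uroplakin genes were chosen after their values were seen. The median of each gene list is therefore also given without SF_HPD 2, as are the fold changes of most genes described.

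Transcripts of further tissues differed between the other libraries. The 28 hepatocyte and plasma protein markers had a mean log2(FPKM + 1) of 8.70 in SC_ConD 2 and 7.53 in SC_ConD 3, but 2.53 in SC_ConD 1, 1.44 to 2.33 in SF_HPD and at most 4.06 in SF_ConD. Their summed level ran from 552 to 4757 FPKM in SF_HPD and from 2131 to 30154 FPKM in SC_ConD. A single member, Cyp2e1, was at 4264 FPKM in SF_HPD 5 and 1919 FPKM in SC_ConD 1, most of the sum in each. Cyp2e1 was at no less than 776 FPKM in any library but SF_HPD 2, so these sums say little of the other markers. Of the 28 markers, 10 were listed at 0 in SF_HPD 2, 4 in SF_HPD 5 and none in the other 6 libraries. B cell and lymph node markers were at 4.62 and 4.86 in SF_HPD 4 and 5 and at 0.45 to 0.98 in the other 6 libraries of the comparison. Skeletal muscle markers were at 8.75 in SF_HPD 4 and 5.47 in SC_ConD 3, against 0.57 to 1.39 in the other 6. For each library, the deviation of log2(FPKM + 1) from the gene's mean over the 13 libraries was correlated with gene length (Spearman rho). This length trend was positive in SF_HPD 1 (0.575), SF_HPD 4 (0.543) and SC_ConD 1 (0.571) and negative in the other 5. Relative to the other libraries, those 3 thus leaned toward long transcripts. A fit without SC_ConD 2 and 3 keeps only SC_ConD 1 as control. Its values therefore differ from the main ones in length trend as well as in liver transcripts. Reads on genes, recovered from the FPKM values, ran from 14815592 to 18061485 per library.

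**Figure D1:**
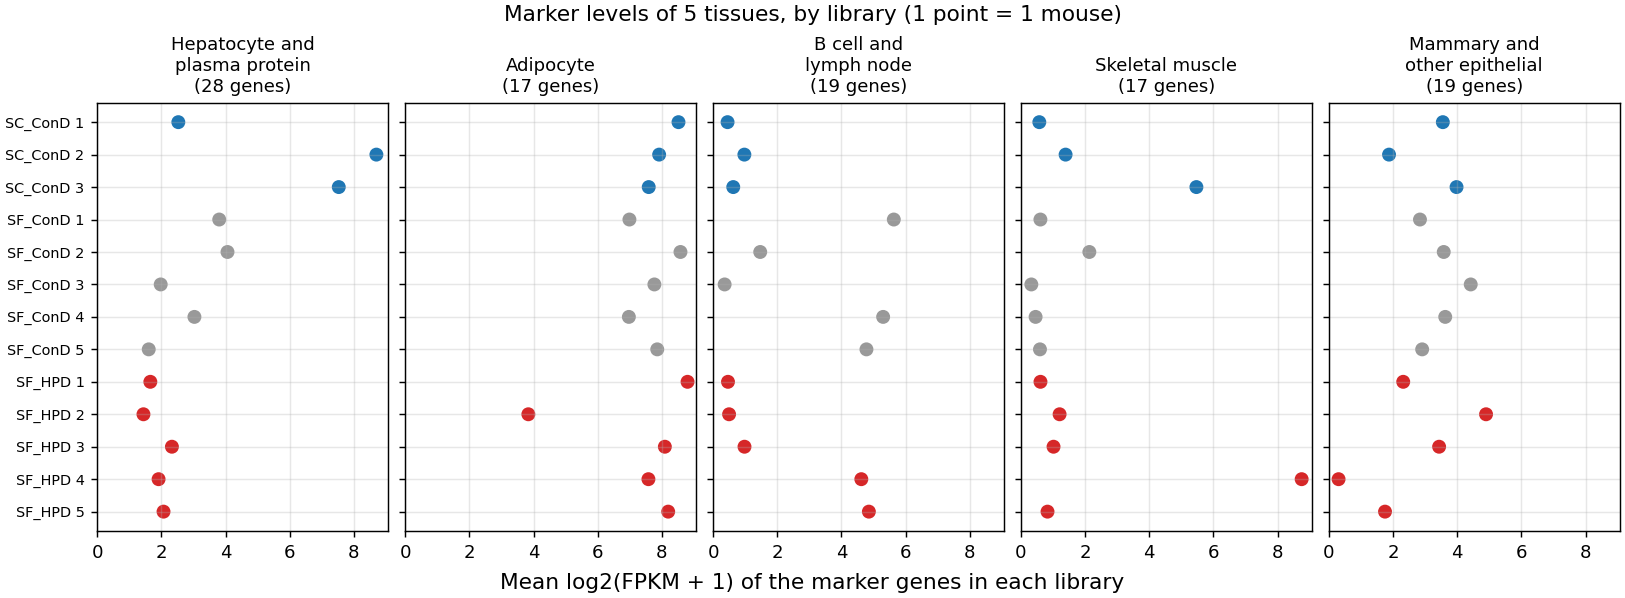
Mean log2(FPKM + 1) of the marker genes of 5 tissues (x axis) in each of the 13 libraries (y axis), 1 point per mouse, blue for SC_ConD, grey for SF_ConD and red for SF_HPD. Hepatocyte markers stand at 8.70 and 7.53 in SC_ConD 2 and 3, adipocyte markers at 3.84 in SF_HPD 2, and muscle markers at 8.75 in SF_HPD 4.

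No gene passed in SF_HPD against SC_ConD. Limma on log2(FPKM + 1), fitted to all 13 libraries, called 0 of 13197 genes (0%) after Benjamini-Hochberg adjustment, and the smallest adjusted p was 0.600. Unadjusted p fell under 0.05 for 462 genes (3.5%), fewer than the 660 that uniform p values would give. Of these, 145 (1.1%) had higher means in SF_HPD and 317 (2.4%) had lower means. Limma-voom on the recovered reads called 0 and gave 382 genes an unadjusted p under 0.05. Positive fold changes numbered 6594 and negative ones 6603, so all genes together were centred near 0 (median log2 fold change -0.00054). The groups had no overlap for 189 genes (1.43%), of which SF_HPD lay above SC_ConD for 98 (0.743%) and below for 91 (0.69%). With random labels a gene would separate in a given direction in 1 of 56 regroupings (0.0179). Both shares were below that, so lack of overlap in a single gene is no sign of a difference. All fold changes are SF_HPD minus SC_ConD on the log2(FPKM + 1) scale, which understates the change of low genes, and their median SE was 0.46.

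The count of calls turned on single libraries. Without SC_ConD 1, the only SC_ConD library with few liver transcripts, limma called 124 genes (0.94%), of which 122 were lower in SF_HPD. Those calls held 20 of the 23 hepatocyte markers kept by the filter. The 2 called higher there were Them6 and Wdr41. Wdr41, a partner of the C9orf72 complex, was at 3.93 to 5.60 FPKM in SF_HPD and at 4.10 FPKM in SC_ConD 1, 0.997 FPKM in SC_ConD 2 and 1.20 FPKM in SC_ConD 3. SC_ConD 1 thus stood within the SF_HPD range for it. Leaving out the libraries with a length trend above 0.3, SC_ConD 1 among them, limma called 116 genes (0.879%), 112 of them lower. Without SF_HPD 5 it called 1 gene (0.00758%), Gm22478, and without SF_HPD 2 it called 0, with 503 at an unadjusted p under 0.05.

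**Figure D2:**
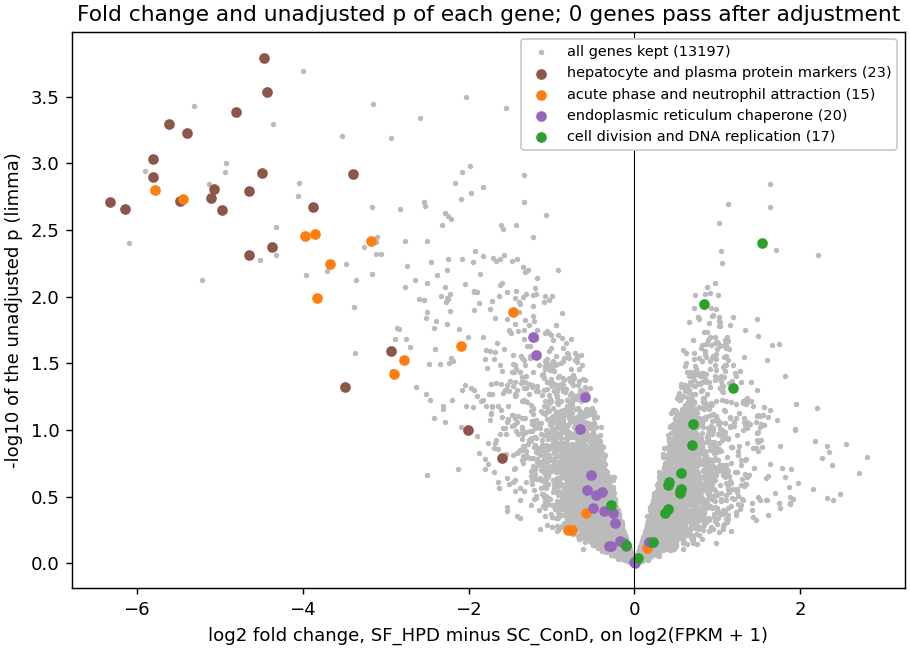
Each point is 1 of the 13197 genes, with its log2 fold change (SF_HPD minus SC_ConD, x axis) and the -log10 of its unadjusted limma p (y axis). Colours mark 4 gene lists. The 23 hepatocyte markers all lie left of 0, with fold changes from -6.32 to -1.60, and 15 of 17 cell division genes lie right of 0. Genes under 1 FPKM throughout 1 group passed the filter only through the other group.

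The genes with the smallest p and no overlap on the lower side were 8 genes of liver-secreted plasma proteins, and none passed. Apoh (ENSMUSG00000000049, chromosome 11, 108343354 to 108414396 on GRCm38), which encodes apolipoprotein H, was at 0.558, 0, 0.599, 0.691 and 0.316 FPKM in SF_HPD 1 to 5. It was at 3.13, 138 and 51.5 FPKM in SC_ConD 1 to 3. The groups did not overlap, but SC_ConD 1 stood far nearer to SF_HPD than to the other SC_ConD mice. Its log2 fold change was -4.46 (SE 0.86, adjusted p = 0.600 by limma), with adjusted p between 2.77e-04 and 1.0 over the alternatives run. The Apoh fold change was -1.55 without SC_ConD 2 and 3 and -4.34 without SF_HPD 2.

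Ahsg (chromosome 16, 22891277 to 22899449), the gene of the calcium-binding plasma protein fetuin-A, was at 1.25 ± 0.737 FPKM (SD, n = 5) in SF_HPD. In SC_ConD 1, 2 and 3 it was at 5.81, 658 and 258 FPKM. Gc, the gene of the vitamin D binding protein, was at 1.51 ± 0.688 FPKM (SD, n = 5) in SF_HPD and at 6.17, 541 and 234 FPKM in SC_ConD 1 to 3. In SF_ConD, Ahsg ran from 0.436 to 18.7 FPKM and Gc from 0.707 to 13.5 FPKM, below SC_ConD 2 and 3 in every library. The other 5 were the apolipoprotein gene Apof, the kininogen gene Kng1, the anticoagulant protein C gene Proc, the antitrypsin gene Serpina1d and the complement C5 gene Hc. Their log2 fold changes lay between -4.80 (SE 1.03) for Serpina1d and -2.59 (SE 0.56) for Hc. Serpina1d has near-identical neighbours that can share its reads, so its own level is uncertain. Alb, serum albumin, was at 33.7, 3.30, 22.2, 21.6 and 16.8 FPKM in SF_HPD 1 to 5 and at 52.2, 4223 and 1614 FPKM in SC_ConD 1 to 3. SC_ConD 2 and 3 were thus at least 1614 FPKM and the other 6 libraries at most 52.2 FPKM.

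Hepatocyte and plasma protein markers had negative fold changes in 23 of the 23 kept, and unadjusted p was under 0.05 for 21 of these, while 11 had no overlap. Over all genes those shares on the lower side were 2.4% and 0.69%. Their median log2 fold change was -4.65, against -0.00054 over all genes. It was -0.69 without SC_ConD 2 and 3 and -4.66 without SF_HPD 2. Apoh and Kng1 stayed under 1 FPKM in every SF_HPD library and passed the filter only through SC_ConD. For such markers the filter fixed the negative sign and the lack of overlap. Whether the hepatocyte transcripts came from the fat pad itself was not tested.

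**Figure D3:**
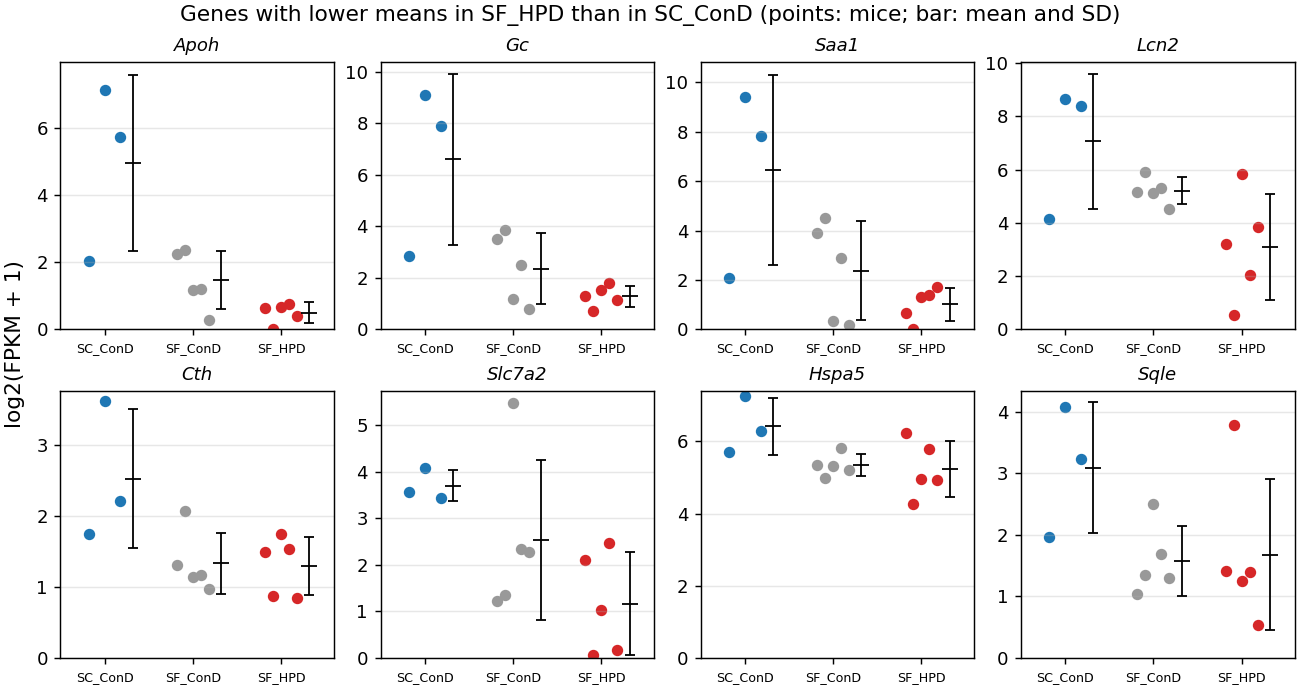
log2(FPKM + 1) (y axis) of 8 genes with lower means in SF_HPD than in SC_ConD, 1 point per mouse, with the mean and SD beside each group. For Apoh, Gc and Saa1 2 of the 3 SC_ConD points stand far above the rest, whereas for Slc7a2 all 3 SC_ConD points lie between 9.89 and 16.0 FPKM, above each SF_HPD point.

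Acute phase and neutrophil attraction genes, the secreted and chemotactic proteins that inflammation induces in liver and fat, lay lower as well. Of 18 on the list 15 were kept, 14 with negative fold changes and 11 with an unadjusted p under 0.05 (2.4% of all genes on the lower side), and none passed. The median log2 fold change was -2.90, which became -0.95 without SC_ConD 2 and 3 and -2.02 without SF_HPD 2. Saa1, a serum amyloid A gene of liver, was at 0.586, 0, 1.46, 1.61 and 2.24 FPKM in SF_HPD 1 to 5 and at 3.28, 682 and 228 FPKM in SC_ConD 1 to 3. The libraries did not overlap (log2 fold change -5.44, SE 1.40; -5.19 without SF_HPD 2), but Saa1 and its near-identical copy Saa2 can share reads. Lcn2, an iron-scavenging lipocalin that adipocytes and neutrophils also make, was at 8.34, 0.440, 56.3, 3.07 and 13.5 FPKM in SF_HPD 1 to 5. It was at 16.8, 398 and 335 FPKM in SC_ConD 1 to 3 and at 21.8 to 59.7 FPKM in SF_ConD. SF_HPD 3 stood above SC_ConD 1, so the groups overlapped (log2 fold change -3.97, SE 1.12, adjusted p = 0.748 by limma; -1.06 without SC_ConD 2 and 3 and -3.33 without SF_HPD 2). Serpina3n, a protease inhibitor gene of the acute phase, was at 36.0 ± 28.7 FPKM (SD, n = 5) in SF_HPD and at 53.4, 1478 and 759 FPKM in SC_ConD 1 to 3. Hepatocyte markers moved with this list, and their part in it was not tested.

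On the higher side the 8 named genes with the smallest p and no overlap had smaller differences, and none passed. Mir22hg (chromosome 11, 75461539 to 75466676) is the host transcript of miR-22. It was at 15.1, 21.1, 15.2, 16.7 and 21.9 FPKM in SF_HPD 1 to 5 and at 6.88, 12.0 and 7.95 FPKM in SC_ConD 1 to 3. Every SF_HPD library lay above every SC_ConD library (log2 fold change 0.95, SE 0.34, adjusted p = 0.9997 by limma). The fold change was 1.25 without SC_ConD 2 and 3, 0.89 without SF_HPD 2 and 1.20 without all 3. In SF_ConD, Mir22hg was at 4.22 to 13.5 FPKM, also below each SF_HPD library. The mature sequence within this transcript, given by RefSeq on GRCm38.p6 at chr11:75463772-75463793, is shown because Mir22hg was the only miRNA host gene among the 8, with its seed (bases 2 to 8) in capitals. The mature miRNA itself was not measured in these libraries.
mmu-miR-22-3p: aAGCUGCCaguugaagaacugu

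Hsdl1, a gene of a mitochondrial short-chain dehydrogenase-like protein, was at 9.45, 9.32, 8.78, 9.42 and 8.92 FPKM in SF_HPD 1 to 5, the narrowest spread of the 8. SC_ConD 1 to 3 were at 7.15, 2.80 and 4.19 FPKM (log2 fold change 0.90, SE 0.30, adjusted p = 0.976 by limma). SC_ConD 1 again stood nearest to SF_HPD, and without SC_ConD 2 and 3 the fold change was 0.32. Zfp422, a zinc finger gene, was at 6.12 ± 1.90 FPKM (SD, n = 5) in SF_HPD and 2.53 ± 1.32 FPKM (SD, n = 3) in SC_ConD. Its fold change of 1.05 (SE 0.32, adjusted p = 0.804 by limma) became 0.53 without SC_ConD 2 and 3. The other 5 were Cybc1, a chaperone of the phagocyte NADPH oxidase, the magnesium transporter gene Nipa1, the gastrokine gene Gkn3, the transcription factor subunit gene Taf7 and Rogdi, with fold changes from 0.81 for Taf7 to 1.14 for Cybc1. SF_HPD 2 was the highest SF_HPD library for Zfp422, Nipa1, Gkn3 and Cybc1. Without it their fold changes were 0.91, 0.60, 0.86 and 0.91.

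**Figure D4:**
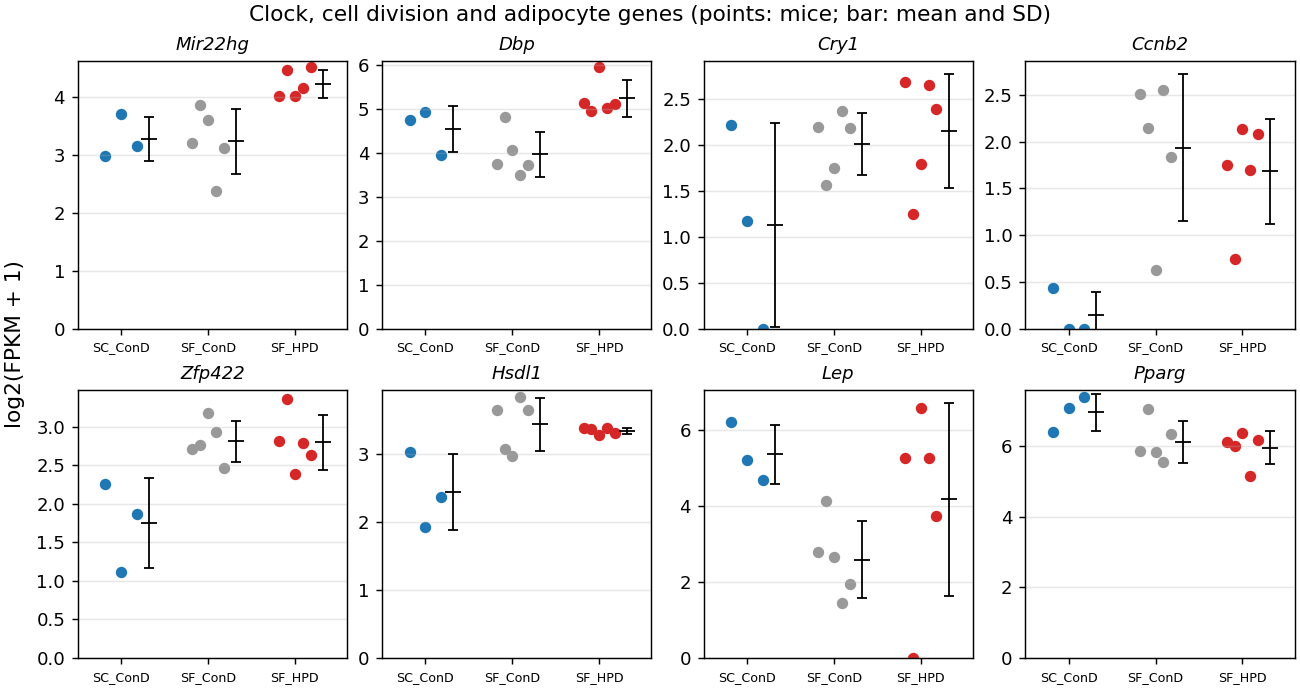
log2(FPKM + 1) (y axis) of 8 genes by group, 1 point per mouse, with the mean and SD beside each group. The 5 SF_HPD points lie above the 3 SC_ConD points for Mir22hg, Dbp, Ccnb2, Zfp422 and Hsdl1, below them for Pparg, and overlap them for Cry1 and Lep. Lep is at 0 in SF_HPD 2.

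Circadian clock genes showed no common direction. The clock is a feedback loop in which CLOCK and ARNTL drive Per and Cry genes through the E-box, and DBP and NFIL3 act with opposite sign at the D-box. Of 21 genes 19 were kept, 10 with positive and 9 with negative fold changes, and the median was 0.05 (0.19 without SF_HPD 2 and -0.51 without SC_ConD 2 and 3). The mean log2(FPKM + 1) of the list was 3.09 in SF_HPD 1, 3.18 in SF_HPD 4 and 3.15 in SC_ConD 1. These libraries leaned toward long transcripts, and the rest of the comparison was at 1.83 to 2.36. Dbp (chromosome 7, 45705088 to 45710203) was at 34.0, 30.0, 61.0, 31.3 and 33.2 FPKM in SF_HPD 1 to 5 and at 25.8, 29.5 and 14.5 FPKM in SC_ConD 1 to 3. All SF_HPD libraries lay above SC_ConD, although SF_HPD 2 and SC_ConD 2 were nearly level, and SF_ConD was lower than each SF_HPD library at 10.2 to 26.8 FPKM. The Dbp fold change was 0.69 (SE 0.38, unadjusted p = 0.0916 by limma) and 0.48 to 0.79 with SC_ConD 2 and 3 or SC_ConD 1 left out.

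Cry1, a repressor of the loop, was at 5.44, 1.38, 2.46, 5.33 and 4.26 FPKM in SF_HPD 1 to 5 and at 3.66, 1.26 and 0 FPKM in SC_ConD 1 to 3. The groups overlapped, and the fold change of 1.03 (SE 0.47, unadjusted p = 0.0487 by limma) was -0.06 without SC_ConD 2 and 3 and 1.25 without SF_HPD 2. Per3 was highest in SF_HPD 1 and 4 (8.92 and 8.13 FPKM) and SC_ConD 1 (4.72 FPKM), the 3 libraries with a length trend above 0.3, and at 0.863 to 3.45 FPKM in the other 5. Bhlhe40, which encodes a repressor at E-boxes, was at 3.57, 0.982, 3.77, 17.9 and 1.37 FPKM in SF_HPD 1 to 5 and at 14.5, 18.6 and 12.8 FPKM in SC_ConD 1 to 3. SF_HPD 4 alone stood in the SC_ConD range, and the fold change was -1.83 (SE 0.69) with all libraries, -1.77 without SC_ConD 2 and 3 and -1.53 without SF_HPD 2. Nfil3 was at 2.51 ± 0.597 FPKM (SD, n = 5) against 4.87 ± 1.91 FPKM (SD, n = 3), a fold change of -0.70 that became -0.09 without SC_ConD 2 and 3.

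The 250 bases before the RefSeq start of Cry1 (minus strand, chr10:85185055-85185304, GRCm38.p6) and of Per3 (minus strand, chr4:151044666-151044915) are shown because each holds a clock motif in capitals. These are the E-box CACGTG at -60 to -55 in Cry1 and the D-box TTATGTAA at -205 to -198 and -158 to -151 in Per3, counted from the start. Searched on both strands, CACGTG was in 5 of the 15 clock genes with a promoter in the RefSeq table and in 6.02% of all 32851 promoters. TTATGTAA or TTACGTAA was in 1 of the 15 and in 0.931% of all.
Cry1: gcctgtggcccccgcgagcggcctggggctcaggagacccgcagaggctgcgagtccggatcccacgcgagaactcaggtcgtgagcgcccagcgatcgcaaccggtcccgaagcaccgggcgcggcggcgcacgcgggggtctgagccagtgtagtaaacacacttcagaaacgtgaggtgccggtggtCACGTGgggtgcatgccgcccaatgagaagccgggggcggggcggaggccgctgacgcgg
Per3: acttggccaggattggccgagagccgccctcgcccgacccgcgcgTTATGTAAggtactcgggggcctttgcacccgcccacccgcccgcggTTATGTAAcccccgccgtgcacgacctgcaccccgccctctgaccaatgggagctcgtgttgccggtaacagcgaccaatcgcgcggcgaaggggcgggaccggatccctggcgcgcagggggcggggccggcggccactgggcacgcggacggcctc

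Adipocyte genes had a median whose sign turned on SF_HPD 2. Of 17 genes of adipocyte identity and fatty acid uptake, 14 had negative fold changes, with a median of -0.74. Without SF_HPD 2 the median was 0.28, and without SC_ConD 2 and 3 it was -1.59. Pparg (chromosome 6, 115360951 to 115490399), the master regulator of fat cell formation, differed little in fold change with and without SF_HPD 2. It was at 68.1, 63.6, 81.8, 34.9 and 71.3 FPKM in SF_HPD 1 to 5 and at 83.2, 136 and 168 FPKM in SC_ConD 1 to 3. In SF_HPD 2 the adipocyte gene Plin1 was at only 1.47 FPKM, and which cells held the Pparg transcripts there was not tested. Every SF_HPD library was lower than every SC_ConD library, and the fold change was -0.996 (SE 0.45, unadjusted p = 0.0445 by limma). It was -1.01 without SF_HPD 2 and -0.43 without SC_ConD 2 and 3, and SF_ConD spanned both groups at 45.7 to 132 FPKM.

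Adipokines, the hormones secreted by fat, had negative fold changes in 9 of 9 kept of 10, with a median of -1.44 (-0.62 without SF_HPD 2 and -0.62 without SC_ConD 2 and 3). Without all 3 of those libraries the median was 0.25. Lep, the leptin gene, was at 37.4, 0, 95.0, 37.1 and 12.4 FPKM in SF_HPD 1 to 5 and at 72.7, 35.6 and 24.6 FPKM in SC_ConD 1 to 3. The groups overlapped, with SF_HPD 3 the highest of the 8, and SF_ConD lay below SC_ConD at 1.71 to 16.4 FPKM but overlapped SF_HPD. The Lep fold change was -1.19, and -0.15 without SF_HPD 2. For Lep a two-sided permutation test, exact over the 8 libraries, had p = 0.607, and 0.850 after adjustment over 7 preset genes. Adipoq, the adiponectin gene, was at 26.1 FPKM in SF_HPD 2, 673 to 2175 FPKM in the other SF_HPD libraries and 1135 to 4231 FPKM in SC_ConD (exact permutation p = 0.357, adjusted 0.813). The other preset genes did not pass either, and 56 regroupings allow no p below 0.0179. Ucp1, the uncoupling protein of heat-producing adipocytes, was at 2.605, 0, 0.259, 2.55 and 124 FPKM in SF_HPD 1 to 5 and at 23.4, 3.03 and 0 FPKM in SC_ConD 1 to 3 (exact permutation p = 1.0). A single library, SF_HPD 5, held nearly all of the SF_HPD total.

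Rbp4, a retinol carrier that liver and fat secrete, was at 118, 59.9, 282, 47.0 and 247 FPKM in SF_HPD 1 to 5 and at 118, 3254 and 649.9 FPKM in SC_ConD 1 to 3. Only the 2 libraries with liver transcripts stood above SF_HPD, and the fold change of -2.40 (SE 0.95) was 0.01 without them and -2.16 without SF_HPD 2. The retinoid list had 12 of 19 kept genes with negative fold changes and a median of -0.25 (-0.38 without SF_HPD 2 and -0.17 without SC_ConD 2 and 3). After rescaling to TPM its median was 0.00, against 0.24 over all genes. Aldh1a1, which makes retinoic acid, was at 10.3, 7.16, 34.7, 20.6 and 6.85 FPKM in SF_HPD 1 to 5 and at 19.95, 74.2 and 51.0 FPKM in SC_ConD 1 to 3. SF_HPD 3 and 4 reached above SC_ConD 1 (fold change -1.62, SE 0.52; -0.57 without SC_ConD 2 and 3 and -1.42 without SF_HPD 2).

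De novo lipogenesis genes, which build fatty acids from sugar, had 13 of 17 negative fold changes and a median of -0.29. That median was -0.12 without SF_HPD 2 and -1.08 without SC_ConD 2 and 3. In TPM it was 0.03, against 0.24 over all genes. Scd1, the desaturase gene, was at 2384, 32.03, 947, 1270 and 768 FPKM in SF_HPD 1 to 5 and at 7808, 2387 and 2660 FPKM in SC_ConD 1 to 3. No SF_HPD library reached SC_ConD, though SF_HPD 1 and SC_ConD 2 lay side by side, and the fold change was -2.63 (SE 1.21; -1.59 without SF_HPD 2). Thrsp, a lipogenic regulator of fat, was at 81.9, 6.86, 100, 46.4 and 392 FPKM in SF_HPD 1 to 5, at 188, 891 and 292 FPKM in SC_ConD 1 to 3 and at 162 to 958 FPKM in SF_ConD. SF_HPD 5 alone reached into the range of both chow groups (fold change -2.48, SE 1.04; -1.71 without SF_HPD 2). Lipolysis and lipid droplet genes (median -0.67) had positive medians without SF_HPD 2 (0.28), as did fatty acid oxidation (-0.14 and 0.11) and thermogenic genes (-0.00 and 0.34). Without SC_ConD 2 and 3 the same 3 medians were -0.98, -1.02 and -1.23.

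Genes of sterol synthesis, regulated by SREBP2 when cells lack cholesterol, had negative fold changes in 20 of 22 kept, with a median of -0.51. The median was -0.69 without SF_HPD 2 and 0.04 without SC_ConD 2 and 3. Sqle, squalene epoxidase, was at 12.7 FPKM in SF_HPD 2, 0.455 to 1.66 FPKM in the other SF_HPD libraries and 2.89 to 15.9 FPKM in SC_ConD. Apart from SF_HPD 2, the SF_HPD libraries lay below SC_ConD, a reading chosen after the values were seen.

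Endoplasmic reticulum chaperones, which fold secreted proteins and are induced through ATF6 and XBP1, had negative fold changes in 18 of 20, with a median of -0.34 (-0.37 without SF_HPD 2 and -0.02 without SC_ConD 2 and 3). Rescaling to TPM moved the median of all genes by 0.24 and that of this list to -0.08. Hspa5 (chromosome 2, 34771970 to 34777547), the gene of the chaperone BiP, was at 73.6, 18.2, 29.9, 53.8 and 29.2 FPKM in SF_HPD 1 to 5. It was at 51.0, 151 and 77.02 FPKM in SC_ConD 1 to 3 and at 30.9 to 55.2 FPKM in SF_ConD. SC_ConD 2 and 3 were the 2 highest of the 8, and SF_HPD 1 and 4 stood above SC_ConD 1 (fold change -1.19, SE 0.48, unadjusted p = 0.0274 by limma). The Hspa5 fold change was -0.47 without SC_ConD 2 and 3 and -0.95 without SF_HPD 2. Hyou1, a large chaperone partner of BiP, was at 8.33, 1.92, 3.06, 6.50 and 2.43 FPKM in SF_HPD 1 to 5 and at 7.29, 15.2 and 10.3 FPKM in SC_ConD 1 to 3. Dnajc3 was at 22.2 ± 3.71 FPKM (SD, n = 5) against 34.7 ± 10.8 FPKM (SD, n = 3), and Hsp90b1 at 41.9 ± 10.98 FPKM against 69.2 ± 30.5 FPKM (SD, n = 5 and 3). In all 4 of these genes SC_ConD 2 was the highest library, and hepatocyte markers, a class of genes for secreted proteins, were highest there too. Their part in this result was not tested.

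The promoters of Hspa5 (plus strand, chr2:34771840-34772089), Hsp90b1 (minus strand, chr10:86705445-86705694) and Dnajc3 (plus strand, chr14:118937682-118937931) are shown because all 3 hold the endoplasmic reticulum stress element. They are the 250 bases before the RefSeq start on GRCm38.p6, and the files place the start of Hspa5 and Hsp90b1 inside them. Capitals mark CCAAT and CCACG with 9 bases of any kind between them, on either strand, at -65 to -47 in Hspa5, -212 to -194 and -107 to -89 in Hsp90b1 and -105 to -87 in Dnajc3. The element was in 7 of the 17 chaperone genes with a promoter in the table and in 0.113% of all promoters.
Hspa5: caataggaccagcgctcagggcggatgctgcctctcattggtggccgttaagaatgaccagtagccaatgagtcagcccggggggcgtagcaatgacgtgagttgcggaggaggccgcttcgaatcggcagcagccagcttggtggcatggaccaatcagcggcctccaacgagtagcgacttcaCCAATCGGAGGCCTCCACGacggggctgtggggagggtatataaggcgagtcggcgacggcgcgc
Hsp90b1: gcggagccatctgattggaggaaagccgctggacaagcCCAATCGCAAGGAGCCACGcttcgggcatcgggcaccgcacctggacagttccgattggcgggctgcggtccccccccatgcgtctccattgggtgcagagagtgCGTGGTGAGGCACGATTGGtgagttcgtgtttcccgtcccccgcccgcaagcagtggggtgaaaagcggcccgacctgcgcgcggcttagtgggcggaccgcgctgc
Dnajc3: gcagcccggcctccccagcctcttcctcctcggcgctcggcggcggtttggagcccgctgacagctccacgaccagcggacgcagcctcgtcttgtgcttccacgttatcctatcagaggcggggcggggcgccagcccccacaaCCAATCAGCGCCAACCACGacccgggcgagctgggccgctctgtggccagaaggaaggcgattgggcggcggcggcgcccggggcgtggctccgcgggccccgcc

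Genes of amino acid handling, of which a protein-rich diet raises the supply, mostly had lower means in SF_HPD. In the ATF4 list, the genes switched on when amino acids are scarce, 17 of 21 kept had negative fold changes, with a median of -0.40 (-0.24 without SF_HPD 2 and -0.02 without SC_ConD 2 and 3). Cth (chromosome 3, 157894248 to 157925077), which makes cysteine from cystathionine, was at 1.81, 0.828, 2.34, 1.91 and 0.795 FPKM in SF_HPD 1 to 5 and at 2.34, 11.3 and 3.62 FPKM in SC_ConD 1 to 3. The groups did not overlap, but SF_HPD 3 and SC_ConD 1 lay at the same level (fold change -1.23, SE 0.42; -0.44 without SC_ConD 2 and 3 and -1.12 without SF_HPD 2). Cbs, the enzyme before it, was at 6.46, 0.795, 4.14, 2.62 and 4.07 FPKM in SF_HPD 1 to 5 and at 6.30, 17.9 and 13.1 FPKM in SC_ConD 1 to 3. Only SF_HPD 1 reached SC_ConD 1, and the fold change was -1.58 (SE 0.44, adjusted p = 0.697 by limma). It was -1.28 without SF_HPD 2 and -0.81 without SC_ConD 2 and 3. Trib3, a pseudokinase induced by ATF4, was at 7.38, 0, 5.27, 5.15 and 3.85 FPKM in SF_HPD 1 to 5 and at 11.4, 6.59 and 13.8 FPKM in SC_ConD 1 to 3 (fold change -1.36, SE 0.55; -0.83 without SF_HPD 2).

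Among 21 amino acid transporters kept, 14 had negative fold changes (median -0.17, -0.65 without SC_ConD 2 and 3 and 0.19 without SF_HPD 2). Rescaled to TPM, the median was 0.06, against 0.24 over all genes. Slc7a2 (chromosome 8, 40862396 to 40922308), a carrier of arginine and lysine, stood out in that its SC_ConD libraries were alike. It was at 3.29, 0.0379, 1.05, 4.55 and 0.121 FPKM in SF_HPD 1 to 5 and at 10.9, 16.0 and 9.89 FPKM in SC_ConD 1 to 3. The lowest SC_ConD library, at 9.89 FPKM, stood above the highest SF_HPD library, at 4.55 FPKM. The fold change was -2.54 (SE 0.85, adjusted p = 0.984 by limma), -2.41 without SC_ConD 2 and 3, -2.26 without SF_HPD 2 and -2.13 without all 3. SF_ConD was at 1.34 to 4.03 FPKM in 4 libraries and at 43.3 FPKM in SF_ConD 3. Slc38a4, a liver carrier of neutral amino acids, was at 6.73 FPKM in SF_HPD 4 and at 0.271 to 0.809 FPKM in the other SF_HPD libraries, against 0.710, 19.2 and 9.12 FPKM in SC_ConD 1 to 3. Its fold change of -1.80 was 0.24 without SC_ConD 2 and 3 and -1.64 without SF_HPD 2.

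Branched-chain amino acid catabolism, which fat carries out in its mitochondria, had 18 of 23 negative fold changes and a median of -0.29 (-0.11 without SF_HPD 2 and -0.54 without SC_ConD 2 and 3). None of the 23 had an unadjusted p under 0.05. Bckdhb, a subunit of the committed dehydrogenase, was at 51.3 ± 29.1 FPKM (SD, n = 5) against 104 ± 58.3 FPKM (SD, n = 3), and its fold change of -1.01 was 0.00 without SC_ConD 2 and 3. In the list of other amino acid catabolism and urea cycle genes 14 of 17 kept were negative, with a median of -0.33 (-0.53 without SF_HPD 2 and -0.28 without SC_ConD 2 and 3). Arg1, the arginase of the liver urea cycle and of some macrophages, was at 0.778, 0.467, 3.07, 0.910 and 1.86 FPKM in SF_HPD 1 to 5 and at 2.32, 191 and 80.1 FPKM in SC_ConD 1 to 3. SF_HPD 3 stood above SC_ConD 1 (fold change -4.05, SE 1.01; -0.56 without SC_ConD 2 and 3 and -3.89 without SF_HPD 2). Gpt2, a mitochondrial alanine transaminase, was at 30.4, 8.29, 24.02, 29.9 and 14.9 FPKM in SF_HPD 1 to 5 and at 32.4, 48.7 and 39.9 FPKM in SC_ConD 1 to 3. Each SF_HPD library was below SC_ConD, whose 3 libraries were close together (fold change -0.996, SE 0.46; -0.71 without SF_HPD 2 and -0.71 without SC_ConD 2 and 3).

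Glucocorticoid-responsive genes, which stress hormones induce, had 9 of 14 negative fold changes and a median of -0.53 (-0.13 without SF_HPD 2 and 0.19 without SC_ConD 2 and 3). Fkbp5, a chaperone of the glucocorticoid receptor, was at 12.1, 1.15, 2.86, 5.84 and 2.61 FPKM in SF_HPD 1 to 5, at 9.49, 8.70 and 9.05 FPKM in SC_ConD 1 to 3 and at 6.22 to 14.0 FPKM in SF_ConD. SF_HPD 1 stood above all SC_ConD libraries and the other 4 below them (fold change -1.06, SE 0.47; -1.11 without SC_ConD 2 and 3 and -0.76 without SF_HPD 2). Insulin signalling genes had 8 positive and 10 negative fold changes, with a median of -0.08 (-0.68 without SC_ConD 2 and 3 and 0.19 without SF_HPD 2). Rescaling to TPM gave 0.17, against 0.24 over all genes. The mean log2(FPKM + 1) of this list was 3.85 in SF_HPD 1, 3.72 in SF_HPD 4 and 3.65 in SC_ConD 1. These libraries leaned toward long transcripts, and the rest of the comparison was at 1.85 to 2.95. Socs3, an inhibitor of cytokine and insulin signals in that list, was at 4.19 ± 2.03 FPKM (SD, n = 5) against 9.55 ± 4.06 FPKM (SD, n = 3). SC_ConD 1 was at 4.88 FPKM, within the SF_HPD range of 1.16 to 6.72 FPKM. Heat shock genes (median -0.00) and immediate early genes (0.02), which handling and dissection can induce, were centred on 0, and their medians without SF_HPD 2 were -0.08 and 0.11.

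Collagens, the fibres of the matrix, had positive fold changes in 12 of 16 kept, with a median of 0.32. It was 0.71 without SF_HPD 2 and -0.78 without SC_ConD 2 and 3. The mean log2(FPKM + 1) of the list was highest in SF_HPD 1 (4.45), SF_HPD 4 (3.98) and SC_ConD 1 (3.87). These are the libraries of the comparison with a length trend above 0.3, and the rest were at 1.90 to 3.19. The part of the length trend in this was not tested. Col3a1, a fibrillar collagen, was at 123, 33.8, 88.8, 94.8 and 32.9 FPKM in SF_HPD 1 to 5 and at 65.3, 21.2 and 24.5 FPKM in SC_ConD 1 to 3. SC_ConD 1 stood within the SF_HPD range and the other SC_ConD mice below it (fold change 0.98, SE 0.62; -0.01 without SC_ConD 2 and 3 and 1.21 without SF_HPD 2). Among matrix glycoproteins and regulators 21 of 29 had negative fold changes, with a median of -0.16 (-0.66 without SC_ConD 2 and 3 and 0.20 without SF_HPD 2). Rescaling to TPM gave a median of 0.11, against 0.24 over all genes. Fn1, fibronectin, which liver also secretes into plasma, was at 17.95, 10.96, 8.64, 16.3 and 4.15 FPKM in SF_HPD 1 to 5 and at 12.1, 110 and 56.05 FPKM in SC_ConD 1 to 3. SC_ConD 1 lay in the middle of SF_HPD, and the fold change of -1.93 (SE 0.63, adjusted p = 0.976 by limma) was -0.20 without SC_ConD 2 and 3 and -1.95 without SF_HPD 2.

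Inflammatory cytokine and chemokine genes were split, with 12 positive and 11 negative fold changes among 23 kept of 30 and a median of 0.01 (0.14 without SF_HPD 2, 0.30 without SC_ConD 2 and 3 and -0.38 without the lymphoid-rich libraries). Cxcl9, a chemokine that interferon gamma induces, was at 6.52, 0.268, 12.54, 9.61 and 38.9 FPKM in SF_HPD 1 to 5 and at 13.6, 292 and 172 FPKM in SC_ConD 1 to 3. SC_ConD 2 and 3 stood above the other 6 libraries (fold change -3.35, SE 1.06, adjusted p = 0.913 by limma; -0.72 without them and -2.65 without SF_HPD 2). Ccl2, which attracts monocytes, was at 0.658, 1.42, 5.18, 0.968 and 4.61 FPKM in SF_HPD 1 to 5 and at 0.313, 10.97 and 13.2 FPKM in SC_ConD 1 to 3. The fold change of -0.98 was 1.23 without SC_ConD 2 and 3 and -0.90 without SF_HPD 2 (exact permutation p of the 8 libraries 0.286, adjusted 0.813). Adgre1, the macrophage marker F4/80, was at 8.76 ± 8.28 FPKM (SD, n = 5) against 7.25 ± 1.12 FPKM (SD, n = 3), with an exact permutation p of 0.804. Tnf and Il6 were below the filter. Tnf was at 0.0286, 0, 0.842, 1.34 and 1.85 FPKM in SF_HPD 1 to 5 and at 0.253, 0 and 0 FPKM in SC_ConD 1 to 3 (exact permutation p = 0.25, adjusted 0.813). The 2 highest were the lymphoid-rich SF_HPD 4 and 5. Ccl4, a chemokine of activated leukocytes, was listed at 0 in all 3 SC_ConD libraries and at 0 to 2.598 FPKM in SF_HPD.

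Interferon-stimulated genes had negative fold changes in 19 of 22 kept, with a median of -0.60 (-0.39 without SF_HPD 2 and 0.01 without SC_ConD 2 and 3). Gbp2, a GTPase that interferon induces, was at 13.5, 1.88, 16.9, 18.3 and 23.3 FPKM in SF_HPD 1 to 5 and at 19.6, 103 and 54.1 FPKM in SC_ConD 1 to 3, with SC_ConD 1 inside the SF_HPD range. NADPH oxidase subunits, the superoxide machinery of phagocytes, had 7 of 8 positive fold changes and a median of 0.43. The median was 0.59 without SF_HPD 2, 0.998 without SC_ConD 2 and 3 and -0.07 without the lymphoid-rich libraries. Ncf1 was at 2.11, 20.2, 7.46, 7.06 and 13.2 FPKM in SF_HPD 1 to 5 and at 0.729, 2.17 and 2.16 FPKM in SC_ConD 1 to 3. Only SF_HPD 1 was below an SC_ConD library (fold change 1.82, SE 0.80, unadjusted p = 0.0393 by limma), and the value was 1.52 without SF_HPD 2. Among SF_ConD, Ncf1 reached 12.47 to 19.97 FPKM in libraries 1, 4 and 5, which are rich in lymphoid transcripts, and at most 3.51 FPKM in 2 and 3. Within SF_HPD the order differed. Ncf1 was highest in SF_HPD 2, where 13 of 19 B cell and lymph node markers were listed at 0. The lymphoid-rich SF_HPD 5 came next, and the lymphoid-rich SF_HPD 4 stood below SF_HPD 3. For B cell and lymph node markers, 8 of 8 kept of 20 had positive fold changes, with a median of 1.89 that was 0.02 when the lymphoid-rich libraries were left out. Of the 19 such markers with values, 3, 7 and 10 were listed at 0 in SC_ConD 1, 2 and 3. The filter therefore favoured markers that were higher in SF_HPD. The median of the antigen-presenting MHC class II genes was 0.13, and -0.85 without the lymphoid-rich libraries. It was 0.60 without SF_HPD 2 and 1.43 without SC_ConD 2 and 3, and the B cell median was 2.54 and 2.25 in those settings.

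Cell division and DNA replication genes had positive fold changes in 15 of 17 kept of 26, with a median of 0.55. The median was 0.67 without SF_HPD 2, 0.54 without SC_ConD 2 and 3 and 0.36 without the lymphoid-rich libraries. Ccnb2 (chromosome 9, 70407692 to 70421547), a mitotic cyclin, was at 2.36, 0.679, 3.40, 2.23 and 3.23 FPKM in SF_HPD 1 to 5 and at 0.349, 0 and 0 FPKM in SC_ConD 1 to 3. Every SF_HPD library lay above every SC_ConD library, with SF_HPD 2 the nearest to them. The fold change was 1.54 (SE 0.44, adjusted p = 0.765 by limma) and ran from 1.25 without SC_ConD 2 and 3 to 1.77 without SF_HPD 2. Without the lymphoid-rich libraries it was 1.40. Bub1b, a kinase of the spindle checkpoint, was at 1.03, 0.405, 0.894, 1.86 and 1.27 FPKM in SF_HPD 1 to 5 and at 0.472, 0 and 0 FPKM in SC_ConD 1 to 3. Mcm5, a subunit of the replicative helicase, was at 1.88, 0.665, 2.21, 3.67 and 4.57 FPKM in SF_HPD 1 to 5 and at 0.684, 0.162 and 0.595 FPKM in SC_ConD 1 to 3. For both genes only SF_HPD 2 overlapped SC_ConD. These levels are low, and Ccnb2, Bub1b and Mcm5 stayed under 1 FPKM in every SC_ConD library. They passed the filter only through SF_HPD, which favours positive fold changes. Over all 26 genes, kept or not, the mean log2(FPKM + 1) was 0.92 to 1.66 in SF_HPD and 0.83 to 0.89 in SC_ConD. It was 0.91 to 1.96 in SF_ConD. In SF_ConD, Ccnb2 was at 0.546 to 4.85 FPKM, above every SC_ConD library and across the SF_HPD range.

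Nuclear genes of the respiratory chain had negative fold changes in 36 of 39, with a median of -0.37 and no gene at an unadjusted p under 0.05. The median was -0.55 without SF_HPD 2 and 0.51 without SC_ConD 2 and 3. Mitochondrially encoded genes had 12 of 13 negative fold changes and a median of -0.72 (-0.80 without SF_HPD 2 and -1.01 without SC_ConD 2 and 3). All genes on the mitochondrial chromosome, listed or not, took from 2.82% of reads in SF_HPD 1 to 25.5% in SF_HPD 5. That range was wider than the 7.19% to 16.8% of SC_ConD.

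**Figure D5:**
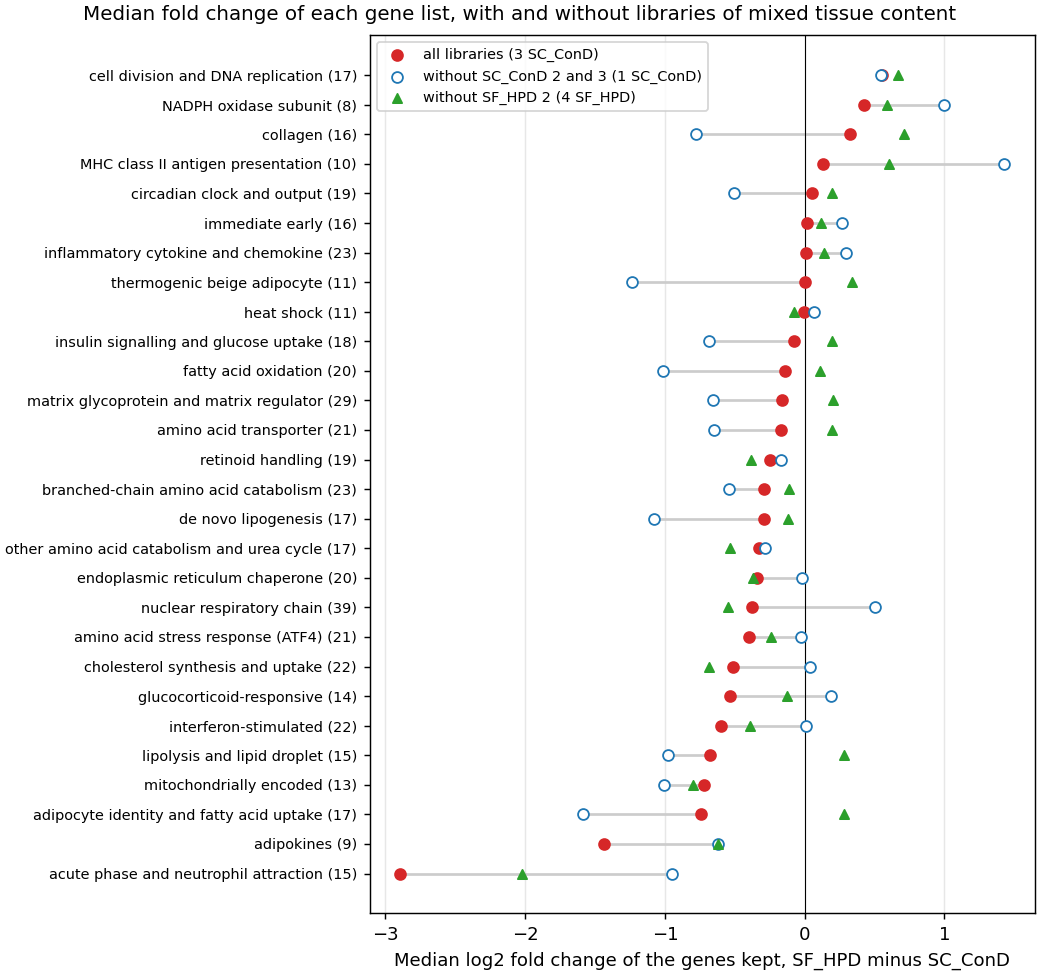
Median log2 fold change (SF_HPD minus SC_ConD, x axis) of 28 gene lists, with the number of genes kept in brackets. Filled circles use all libraries, open circles leave out SC_ConD 2 and 3, and triangles leave out SF_HPD 2. The open circles rest on SC_ConD 1 as the only control, a library with a length trend above 0.3. The cell division list lies between 0.54 and 0.67 in all 3, whereas the acute phase list runs from -2.90 to -0.95. The genes kept are the same in all 3, and cell division members such as Ccnb2 passed the filter only through SF_HPD. Without the lymphoid-rich libraries, a setting not drawn, the cell division median was 0.36.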

How the data were processed

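The deposited table gives FPKM per gene and mouse. The submitters' processing notes name CASAVA, HISAT2 2.0.5, featureCounts 1.5.0-p3 and the build mm8, without roles. The coordinates matched GRCm38 instead: 54409 of 54532 gene identifiers were in that annotation, 53499 with the same start and end. The sources used here do not give the annotation release or the strandedness of counting, so antisense and overlapping genes cannot be separated.

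FPKM values of a library were whole multiples of 1 read within 0.05 for 99.99% to 100% of values, which gave the reads. The quantity the authors divided by was 0.479 to 1.23 times those reads across the 13 libraries, so FPKM sums differ between libraries. The fit used limma 3.58.1 in R 4.3.3 on log2(FPKM + 1) over all 13 libraries, with Benjamini-Hochberg adjustment over 13197 genes and a threshold of 0.05. The fit was tested on simulated data that held no differences in tissue content and no length trend. That test therefore cannot show how the fit behaves under these. Single preset genes had exact permutation tests over 8 libraries. Limma-voom was run on the recovered reads.

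The members and gene lists were chosen with earlier results of these data known. Named genes were, as no gene passed, the 8 with the smallest p in each direction among annotated symbols averaging 2 FPKM or more whose groups did not overlap, up to 4 of smallest p per list and direction, and 7 preset genes. Not every listed gene is described, and some results are not reported here. The deviations of same-numbered mice from their group means had Pearson r of 0.750, 0.356 and 0.218 for numbers 1, 2 and 3. Differently numbered mice ran from -0.533 to 0.580, with 0.435 for SC_ConD 2 with SF_HPD 5 and 0.331 for SC_ConD 3 with SF_HPD 2. The same number was thus not always the closest match. The replicate number was also tried as a block. The labels do not say that a number marks a shared litter, batch or day. Alternatives changed the pseudocount, filter, scaling, covariates and libraries.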

Additional observations from a re-analysis of the deposited data

Results flagged for a closer look

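A library stood apart from the other 4 of its group in 13 of 118 group-wise checks, where the gap to the nearest library divided by the group's range passed 0.71. Chance gives about 1 in 20. Only SF_HPD was checked, since SC_ConD has 3 libraries, so the count says nothing of SF_ConD. SF_HPD 2 was the lowest for Adipoq (ratio 0.733), Scd1 (0.735), Trib3 (0.742), Gbp2 (0.758) and the adipocyte list (0.754). It was the highest for Sqle (0.731) and the cholesterol synthesis list (0.848). SF_HPD 4 was the highest for the muscle markers (0.927) and Slc38a4 (0.804). SF_HPD 5 was the highest for Ucp1 (0.735) and for Hpd (0.738), a tyrosine catabolism gene at 6.64 FPKM there. SF_HPD 3 was the highest for Dbp (0.825), and SF_HPD 1 for Errfi1 (0.790), a feedback inhibitor of the EGF receptor, at 28.2 FPKM.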

How the results depend on the processing

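Limma called 0 genes under the replicate block, where unadjusted p was under 0.05 for 353 genes with 13 libraries and 407 with 8, so the block changed no call. Leaving out 1 mouse at a time gave 0 to 124 calls, 0 to 2 higher and 0 to 122 lower, and leaving out the libraries with a length trend above 0.3 gave 116, with 4 higher and 112 lower. Of 1930 recomputed values over 78 genes, 1851 kept direction and side of the threshold, 36 passed it and 43 changed sign, and the cause was not tested. Without SC_ConD 2 and 3 the sign changed for Rbp4 (0.0102), Ccl2 (1.23), Adgre1 (0.0930), Cry1 (-0.0626), Per3 (-0.240), Errfi1 (0.412), Col3a1 (-0.0051), Slc38a4 (0.238), Slc36a1 (-0.193), Bckdhb (0.00453), Ass1 (0.807) and Cxcl10 (0.146). Without SF_HPD 2 as well, a setting chosen after seeing the data, it changed for Rbp4 (0.253), Retn (0.606), Adipoq (0.333), Ccl2 (1.31), Adgre1 (0.487), Errfi1 (0.437), Hsp90b1 (0.0546), Slc38a4 (0.405), Slc36a1 (-0.163), Hibch (0.0251), Bckdhb (0.196), Ass1 (0.472), Rbp7 (0.228) and Cxcl10 (0.433). Adgre1 was 0.143 in TPM, 0.0189 and 0.0433 with the replicate block on 13 and 8 libraries, 0.0433 without the lymphoid-rich libraries, 0.542 without SF_HPD 2 and 4 and -0.558 to 0.254 leaving out 1 mouse. Ucp1 was 0.0424 at pseudocount 0.1, 0.196 in TPM, 0.0109 by median-of-ratios, 0.309 by limma-voom, 0.846 without SF_HPD 2 and 4, 1.43 without the length-trend libraries and -1.20 to 1.19 leaving out 1 mouse. Rescaling to TPM moved the median of all genes by 0.238 and limma-voom by 0.124. With 3 mice in SC_ConD, 2 of them rich in liver transcripts, a fit without those rests on 1 SC_ConD mouse, assumed to vary like the other groups. That mouse, SC_ConD 1, had a length trend of 0.571, against -0.360 in SC_ConD 2 and -0.300 in SC_ConD 3. Such a fit changes the length trend of the control along with its liver transcripts, and their parts cannot be told apart.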

Other observations

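Smooth muscle and pericyte markers had positive fold changes in 8 of 8, with a median of 0.88 that was 0.47 without SF_HPD 2 and -0.17 without SC_ConD 2 and 3. Their mean log2(FPKM + 1) was 5.45 in SF_HPD 2, the library with uroplakin transcripts, and 2.57 to 4.24 in the other 7 libraries. Endothelial markers had 12 of 16 negative fold changes and a median of -0.27 (-1.61 without SC_ConD 2 and 3 and 0.26 without SF_HPD 2). Their median after rescaling to TPM was 0.01, against 0.24 over all genes. Red blood cell markers had 5 of 5 negative fold changes among those kept, with a median of -1.09 (-0.80 without SF_HPD 2 and -0.04 without SC_ConD 2 and 3).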
